A study of Mus musculus with 4 samples.

Results

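The genes described here are 10 genes of the fibulin family and of the elastic fibre: Fbln1, Fbln2, Fbln5, Efemp1, Efemp2, Fbn1, Eln, Ltbp1, Ltbp2 and Ltbp3. They were taken by symbol from a table of 24421 genes, and all 10 had a row. The members were chosen by name once their RPKM values and log2 differences between these 2 groups were known, so every group difference given for them is a description and supports nothing by itself. The samples were 4 cultures of 4T07, a murine mammary carcinoma cell line of the Balb/cfC3H strain, grown at 37°C and harvested for polyadenylated RNA 48 hours after plating. In 2 samples the genotype was labelled control (4T07-CTL) and in 2 it was labelled Six2 Overexpression (4T07-Six2), with no other allele or agent named in either group. The labels do not say whether replicates were separate cultures, nor whether the Six2 cells were 1 clone or a pool, so p-values here reflect only how far these libraries spread, and that spread may be technical.

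Elastic fibres consist of a core of crosslinked elastin, encoded by Eln, deposited on a scaffold of fibrillin microfibrils, for which Fbn1 encodes a main subunit. The fibulins are secreted glycoproteins with repeated calcium-binding EGF-like domains, and several of them link tropoelastin, microfibrils, crosslinking enzymes and basement membrane. The latent TGF-beta binding proteins, encoded by the Ltbp genes, resemble fibrillins, and several of them hold latent TGF-beta in the matrix. In tissues most elastic fibre proteins come from fibroblasts and smooth muscle cells, and tumour cells of epithelial origin can also secrete some of them.

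Values were RPKM, reads scaled to gene length in kilobases and to library depth, so levels can be compared between genes per length. The read totals behind the values were 43110985 and 41881864 in the control libraries and 49910629 and 81524250 in the libraries labelled Six2, and a single read counted for 0.0123 to 0.0239 RPKM at a length of 1 kb. For Six2 itself, 3 reads were found in Six2 replicate 1 and 0 in each of the other 3 libraries, so the labelled overexpression is not visible in these values. Of the 7 markers listed for these tumour cells, the mesenchymal gene Vim was the most abundant, at 1426 ± 179 RPKM in control libraries and 1475 ± 68.6 RPKM in those labelled Six2 (SD, n = 2 per group). The epithelial keratin gene Krt8 was at 607 RPKM or more in every library, whereas Epcam was at 0.720 RPKM or less and the basal keratin genes Krt5 and Krt14 were at or near 0. Among the 7 tumour cell markers, 2 were lower in the libraries labelled Six2 without overlap and 0 were higher. The 2 were Cdh1 (14.6 and 8.40 against 0.186 and 0.103 RPKM) and Epcam (0.72 and 0.68 against 0.21 and 0.083 RPKM). Fibroblast, endothelial and leukocyte markers were sparse. The summed level of 10 fibroblast markers was 5.28 to 9.95 RPKM in control libraries and 5.19 to 7.45 RPKM in those labelled Six2, most of it Pdgfra, with Col3a1, Lum and Thy1 at 0 in all 4 libraries. For 8 smooth muscle and pericyte markers, none of them at 0 in all libraries, the sums were 8.15 to 14.7 and 6.68 to 12.1 RPKM, and for 8 leukocyte markers, with Adgre1 at 0, they were 7.63 to 12.5 and 5.02 to 9.29 RPKM. For these 3 lists the ranges of the sums overlapped between the groups. Most of the leukocyte sum came from a single marker. In every library Ptprc, Cd3e, Itgam and Csf1r were at 0.0599 RPKM or less and Lyz2 at 0.181 RPKM or less. Single smooth muscle and pericyte markers differed more than their sum, most of which was Rgs5 (5.05 and 1.65 RPKM in control libraries, 10.2 and 4.65 RPKM in those labelled Six2) and Mcam. Of the 8, 5 were lower in the libraries labelled Six2 without overlap, namely Mcam (8.44 and 5.52 against 1.71 and 1.85 RPKM), Acta2 (0.586 and 0.566 RPKM against 0 in both), Cnn1, Tagln and Myh11, and Cspg4 was higher at 0.0290 RPKM or less. Without overlap, 3 of the 10 fibroblast markers (Col1a1, Col1a2 and Pdgfrb) were also lower and Fap was higher, and 4 of 8 endothelial and 1 of 8 leukocyte markers were lower. Among the 10654 genes that passed the filter for testing, given below, 25.5% were lower and 21.9% higher without overlap. Most markers of these 4 lists did not pass that filter, and no such share was taken for genes below it. The 2 percentages are therefore no measure of what to look for in these lists. Most of the non-overlapping markers were below 1 RPKM in all 4 libraries, and some had few reads, such as Pecam1 with 13 and 3 against 3 and 2. These markers were named after their values were seen, and their part in the differences of the matrix genes was not tested. The 8 endothelial markers summed to at most 0.193 RPKM in any library, with Kdr at 0. In such bulk RNA, fewer cells of a type and less RNA per cell cannot be told apart.

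Promoter windows of RefSeq (GRCm38.p6) were found for 9 of the 10 members, all but Eln, as 14 windows of the 250 bases before an annotated start. Those of Efemp2, Ltbp3 and Fbln5 are shown because the first 2 genes were the most abundant members and Fbln5 was the least, with the motif GGGCGG, or its reverse complement CCGCCC, in capitals. The Efemp2 window is the first of 3, chr19:5473696-5473945 (plus strand). The Ltbp3 window is chr19:5740650-5740899 (plus strand), and the Fbln5 window is the first of 2, chr12:101819120-101819369 (minus strand).
Efemp2: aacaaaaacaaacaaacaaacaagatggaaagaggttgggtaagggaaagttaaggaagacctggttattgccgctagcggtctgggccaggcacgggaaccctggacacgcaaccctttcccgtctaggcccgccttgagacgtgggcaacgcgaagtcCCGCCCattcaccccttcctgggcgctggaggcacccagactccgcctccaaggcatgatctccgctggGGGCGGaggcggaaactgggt
Ltbp3: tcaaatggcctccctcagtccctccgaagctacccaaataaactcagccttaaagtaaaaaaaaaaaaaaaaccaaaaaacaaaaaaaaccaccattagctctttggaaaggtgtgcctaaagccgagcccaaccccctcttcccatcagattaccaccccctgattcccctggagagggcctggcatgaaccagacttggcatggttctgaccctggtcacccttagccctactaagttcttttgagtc
Fbln5: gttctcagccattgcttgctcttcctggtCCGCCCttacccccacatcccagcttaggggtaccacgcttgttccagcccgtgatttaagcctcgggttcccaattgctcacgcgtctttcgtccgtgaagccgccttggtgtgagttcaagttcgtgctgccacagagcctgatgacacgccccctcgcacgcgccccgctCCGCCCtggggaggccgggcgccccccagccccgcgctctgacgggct
The Efemp2 and Fbln5 windows each held 2 matches of GGGCGG, with 15 and 21 CpG, whereas the Ltbp3 window held 0 matches and 2 CpG. The other 2 windows of Efemp2 held 5 matches each and 27 and 33 CpG, and the other window of Fbln5 held 0 matches and 6 CpG. Over all 32851 windows the median was 6 CpG (quartiles 2 and 16), and 32.74% held GGGCGG on either strand. The motif TCAGGTTTC, a form of the binding sequence of Six2-type homeodomain proteins, was in 0 of the 14 windows of the members and in 0.39% of all windows. A missing match says only that these letters are not in the window. The window of Fbln2 lies wholly within an annotated exon and is not shown.

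The levels of the 10 genes ranged from 0 to 121 RPKM, and the same pair led the order in both groups. In control libraries Ltbp3 averaged 101 RPKM and Efemp2 95.04 RPKM, ahead of Ltbp1 (18.4), Fbln2 (9.64), Ltbp2 (1.10) and Eln (0.655). Ltbp3 and Efemp2 overlapped between libraries, while from Efemp2 down to Eln no gene overlapped with the next. Efemp1, Fbn1, Fbln1 and Fbln5 followed at 0.0804 RPKM or less, each overlapping with the next. In libraries labelled Six2 the order was Ltbp3 (91.2), Efemp2 (78.3), Ltbp1 (15.9), Eln (2.07), Ltbp2 (0.509) and Fbln2 (0.162), again with an overlap only at the first step, and Fbln2 thus took the sixth place, against the fourth in control libraries. Efemp2 and Ltbp3 lie 267 kb apart on chromosome 19.

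**Figure D1:**
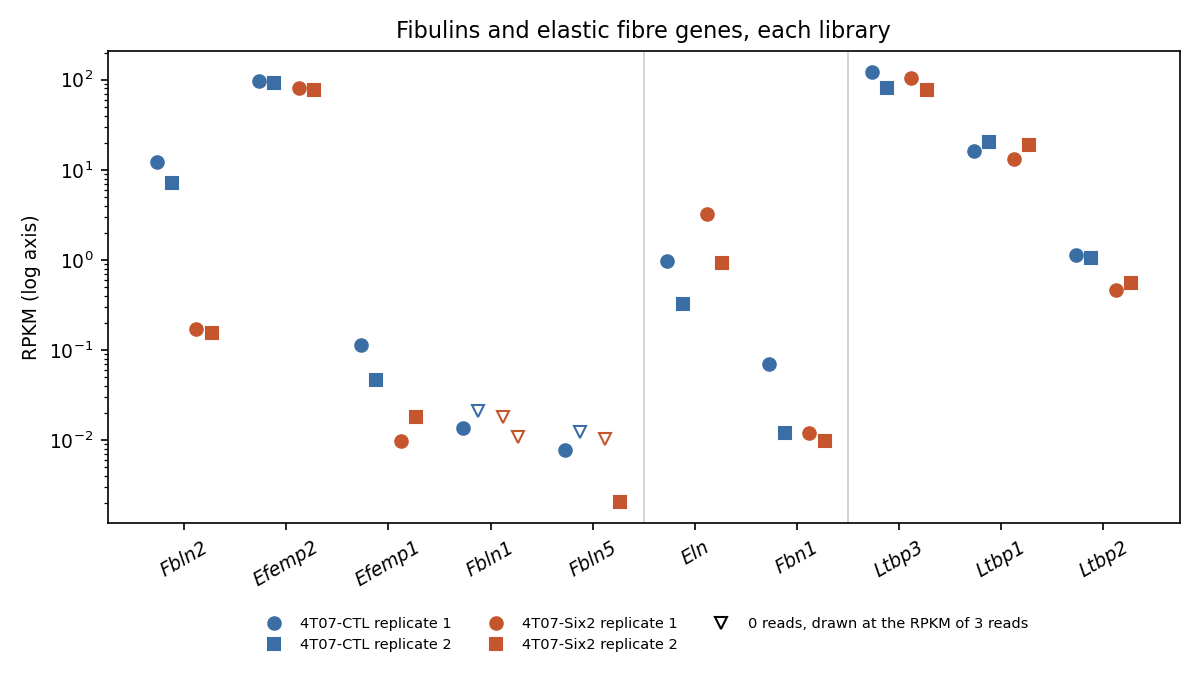
RPKM of the 10 genes in each of the 4 libraries on a log axis, grouped as fibulins, core and microfibril genes, and latent TGF-beta binding proteins; open triangles stand for 0 reads and are drawn at the RPKM that 3 reads would give. Fbln2 is at 12.1 and 7.19 RPKM in the control libraries and at 0.170 and 0.153 RPKM in those labelled Six2, while Ltbp3 and Ltbp1 overlap between the groups.

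Fbln2 encodes fibulin-2, a large fibulin of basement membranes and elastic fibres that binds fibronectin, nidogen and laminin (ENSMUSG00000064080.12, GRCm38 chromosome 6, 91212455 to 91272540, plus strand, protein coding). It was at 12.1 RPKM (2333 reads) and 7.19 RPKM (1348 reads) in control replicates 1 and 2, and at 0.170 RPKM (38 reads) and 0.153 RPKM (56 reads) in Six2 replicates 1 and 2. Both control libraries were high and both libraries labelled Six2 were low, with a wide gap between them. Over the 4 pairings of a control library with one labelled Six2 the ratio was 42.3 to 78.8, against a ratio of 1.68 between the control replicates and 1.11 between the Six2 replicates. On the log2(RPKM + 1) scale, where the change of a low gene comes out too small, the difference was -3.16 (SE 0.255), the fourth lowest of the 10654 genes tested. With a pseudocount of 0.1 it was -5.17, and with voom on recovered reads it was -5.85. Only 6 of all tested genes, or 0.0563%, differed by -3 or less. Fbln2 was chosen with these values known and entered the tested genes only through the control libraries, so nothing is read from its rank or this share.

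Fibulin-2 transcripts were a visible part of the family only in control cells. Fbln2 made up 11.1% and 7.16% of the summed RPKM of the 5 fibulin genes in the control libraries and 0.212% and 0.200% in those labelled Six2. Efemp2 made up 88.8% and 92.8% in the control libraries and 99.8% in each library labelled Six2.

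The genes on either side of Fbln2 were also at lower values in the libraries labelled Six2. Hdac11, which encodes a histone deacetylase (chromosome 6, 91156665 to 91174692, plus strand), was at 1.25 and 0.498 RPKM in the control libraries and 0.249 and 0.192 RPKM in those labelled Six2. Wnt7a, which encodes a Wnt ligand (chromosome 6, 91363981 to 91411363, minus strand), had 25 and 18 reads in the control libraries. It had 0 reads in Six2 replicates 1 and 2, and taking 3 reads for that group as a limit it was at least 22.2-fold lower there. The groups did not overlap for either gene, and neither reached the level at which genes were tested. Among the tested genes 25.5% were lower without overlap, and no such share was taken for genes below that level. The 11 tested protein-coding genes within 1000 kb of Fbln2, a distance chosen after the values were seen, lay below 0 in 8 cases. Among all tested genes 52.1% lay below 0. The differences of the 11 ran from -0.42 (Iqsec1) to 0.41 (Chchd4). Their median was -0.08, close to the median of -0.0885 of chromosome 6.

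**Figure D2:**
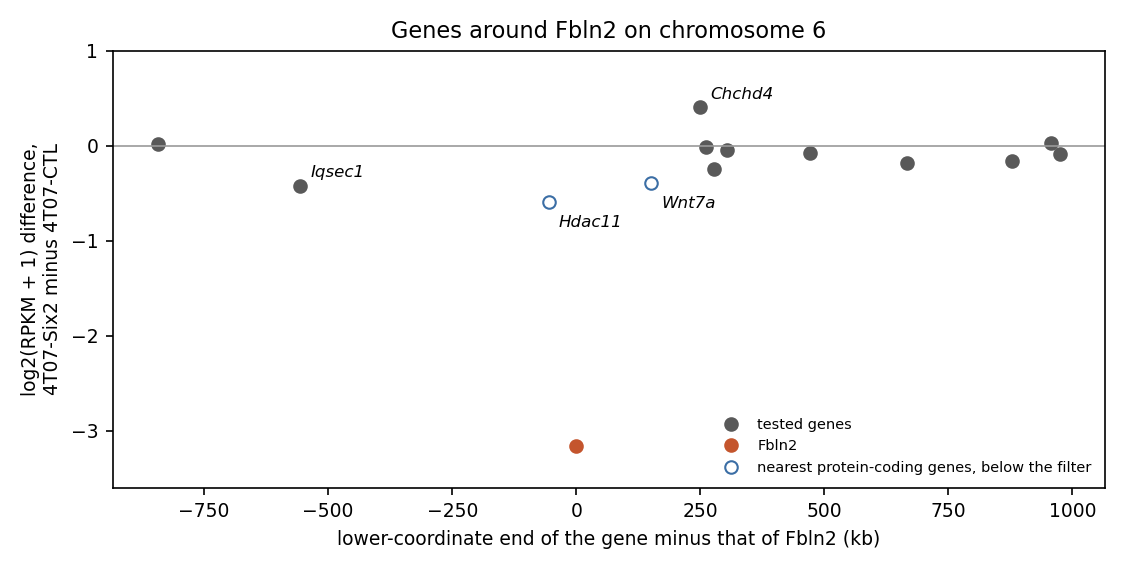
Log2(RPKM + 1) difference, 4T07-Six2 minus 4T07-CTL, of genes within 1000 kb of Fbln2 against the distance in kb of their lower-coordinate ends. Fbln2 stands at -3.16, its nearest protein-coding neighbours Hdac11 and Wnt7a (open circles, below the filter) at -0.588 and -0.397, and the 11 tested genes between -0.42 and 0.41.

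The genes whose values over the 4 libraries lay nearest to those of Fbln2, by the distance between centred log2(RPKM + 1) values, were Cdh1 (distance 0.258), Mustn1 (0.381) and Perp (0.441). Cdh1, which encodes E-cadherin, is also among the 7 tumour cell markers. It was at 14.6 and 8.40 RPKM in the control libraries and at 0.186 and 0.103 RPKM in those labelled Six2. Mustn1, which encodes a small nuclear protein of the musculoskeletal system, was at 27.9 and 11.5 RPKM and at 1.09 and 1.20 RPKM. With 4 libraries in 2 groups this distance is set mainly by the group difference.

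Efemp2 encodes fibulin-4, which is needed for elastic fibre assembly and brings lysyl oxidase to tropoelastin (ENSMUSG00000024909.15, chromosome 19, 5473954 to 5482517, plus strand). It was at 97.0 and 93.1 RPKM in the control libraries and at 80.2 and 76.5 RPKM in those labelled Six2, above 96.4% of the genes of the table. The groups did not overlap, with ratios of 1.16 to 1.27 over the pairings and 1.04 and 1.05 between replicates. The log2 difference was -0.28 (SE 0.0901), and -0.14 once the median of chromosome 19, -0.135, was removed.

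The other fibulin genes were close to silent in all 4 libraries. Efemp1, which encodes fibulin-3 (chromosome 11), had 10 and 4 reads in the control libraries and 1 and 3 reads in those labelled Six2. Summed over the group this was 0.0809 RPKM (exact 95% Poisson interval 0.0442 to 0.136) in control and 0.0149 RPKM (0.00407 to 0.0383) in Six2-labelled cells. The intervals, which cover counting error only, did not overlap, but the values rest on 18 reads. Fbln1, which encodes fibulin-1 (chromosome 15), had 2 reads in control replicate 1 and 0 in the other 3 libraries. Fbln5, which encodes fibulin-5, a binder of tropoelastin and integrins (chromosome 12), had 2 reads in control replicate 1, 1 in Six2 replicate 2 and 0 in the other 2. At this depth no difference was detectable for Fbln1 or Fbln5, since 3 reads over the group would be 0.0105 and 0.0068 RPKM for Fbln1 and 0.00599 and 0.00387 RPKM for Fbln5 in control and Six2-labelled cells.

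Eln, the gene of elastin itself (ENSMUSG00000029675.12, chromosome 5, 134702593 to 134747323, minus strand), was at a low level that varied by about as much between the replicates of a group as between the group means. It was at 0.982 RPKM (160 reads) and 0.328 RPKM (52 reads) in control replicates 1 and 2 and at 3.21 RPKM (605 reads) and 0.931 RPKM (287 reads) in Six2 replicates 1 and 2. Six2 replicate 1 was high, and the other library labelled Six2 lay within the range of the control libraries. The ratio between replicates was 2.99 in the control group and 3.44 in the Six2 group, and that of the group means was 3.16. The log2 difference of 0.81 was 0.25 without Six2 replicate 1 and 0.52 without control replicate 2. It was 1.10 without control replicate 1 and 1.37 without Six2 replicate 2. Set against the control library of the same replicate number, each library labelled Six2 was the higher, by ratios of 3.27 for number 1 and 2.84 for number 2, although the labels do not say that the numbers pair the samples. Eln was the only member with a higher mean in the libraries labelled Six2, and it lay below the filter for testing.

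Fbn1, which encodes fibrillin-1 (ENSMUSG00000027204.13, chromosome 2, 125300594 to 125507993, minus strand), was nearly absent. It had 30 and 5 reads in the control libraries and 6 and 8 reads in those labelled Six2, or 0.0703, 0.0121, 0.0121 and 0.00991 RPKM. Only control replicate 1 stood apart, and control replicate 2 overlapped with the libraries labelled Six2. Per length, Efemp2 was at 76.5 RPKM or more in every library, against at most 3.21 RPKM for Eln and 0.0703 RPKM for Fbn1.

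Ltbp3 encodes a binding protein of latent TGF-beta known for its part in bone and tooth development (ENSMUSG00000024940.11, chromosome 19, 5740904 to 5758532, plus strand). It was at 121 and 81.2 RPKM in control replicates 1 and 2 and at 106 and 76.6 RPKM in Six2 replicates 1 and 2. The groups overlapped, and in each group replicate 1 was the higher. Against the control library of the same number the ratios were 0.873 and 0.944. Ltbp3 made up 79.1% to 87.4% of the summed RPKM of the 3 Ltbp genes in control libraries and 79.9% to 88.6% in those labelled Six2. Its log2 difference of -0.14 (SE 0.263) turned to 0.15 when control replicate 1 was left out and to 0.09 when Six2 replicate 2 was, and it was -0.003 with chromosome medians removed.

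Ltbp1, whose product binds latent TGF-beta covalently and anchors it to fibronectin and fibrillin (ENSMUSG00000001870.16, chromosome 17, 75005568 to 75392512, plus strand), was at 16.3 and 20.5 RPKM in the control libraries and 13.1 and 18.7 RPKM in those labelled Six2. The groups overlapped, and replicate 2 was the higher in each, the opposite of Ltbp3. Against the control library of the same number the ratios were 0.805 and 0.916. The log2 difference was -0.21 (SE 0.214), 0.03 without Six2 replicate 1 and 0.001 with chromosome medians removed.

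Ltbp2, whose product binds fibrillin-1 and fibulin-5 and, unlike its relatives, does not bind latent TGF-beta (ENSMUSG00000002020.15, chromosome 12, 84783212 to 84876532, minus strand), was the second member after Fbln2 by ratio among those tested. It was at 1.15 RPKM (327 reads) and 1.05 RPKM (290 reads) in the control libraries and at 0.467 RPKM (154 reads) and 0.550 RPKM (296 reads) in those labelled Six2. The groups did not overlap, the ratios over the pairings were 1.91 to 2.46, and the replicates differed by ratios of 1.10 and 1.18. The log2 difference was -0.48 (SE 0.132). It was -0.72 once the median of chromosome 12, 0.247, was removed, -0.98 with a pseudocount of 0.1 and -1.10 with voom.

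Of the 10 members, 5 (Fbln2, Efemp2, Ltbp1, Ltbp2 and Ltbp3) reached 1 RPKM in at least 2 libraries and entered the fit across all 10654 such genes. Of these, 0 passed an adjusted p under 0.05 (limma-trend, Benjamini-Hochberg over all genes), beside 0.113% of all tested genes, and 3 had an unadjusted p under 0.05, beside 17% of all tested genes. With voom the counts were also 0 and 3. The groups did not overlap, with lower values in the libraries labelled Six2, for 3 of the 5, beside 25.5% of all tested genes. The median log2 difference of the 5 was -0.276, beside -0.012 for all tested genes. Fbln2 and Ltbp2 passed this filter only through the control libraries, where they were higher. Eln, the only member with a higher mean in the libraries labelled Six2, reached 1 RPKM only in Six2 replicate 1. The filter thus shaped these counts and the median. Since the members were also proposed with this contrast known, nothing is read from the counts or the median.

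**Figure D3:**
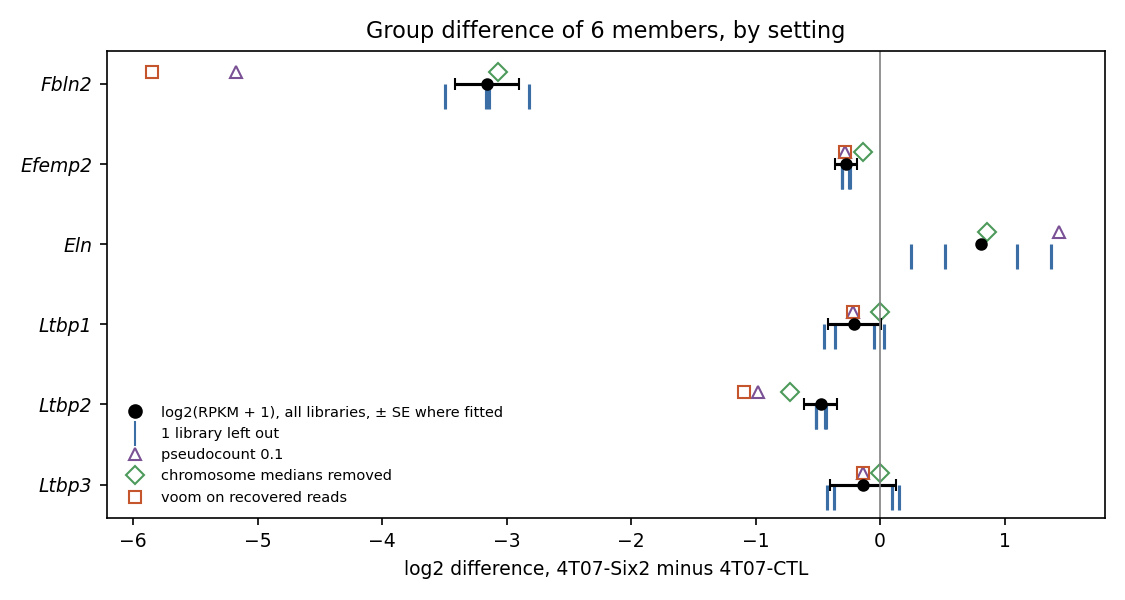
Log2 difference, 4T07-Six2 minus 4T07-CTL, for Eln and the 5 tested members. Black points with SE are the values with all libraries, blue ticks leave out 1 library each, and open symbols are other settings. Fbln2 stays between -5.85 and -2.82, Eln spreads from 0.25 to 1.44, and Ltbp1 and Ltbp3 cross 0.

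Beyond the 10 members, 78 genes were listed in 6 groups by their part in elastic fibres, microfibrils or latent TGF-beta. Of these 77 had a row and 42 were tested. None was called by limma-trend (smallest adjusted p = 0.105) or by voom, and 3 were higher and 12 lower at an unadjusted p under 0.05 with limma-trend, against 16 in either direction with voom. Among all tested genes 7.36% were higher and 9.66% lower at that unadjusted p. Values were lower without overlap for 18 of the 42 (42.9%) and higher for 7 (16.7%), beside 25.5% and 21.9% of all tested genes. The median difference of the 42 was -0.131, and 66.7% of them lay below 0, beside 52.1% of all tested genes. The lists were drawn up with earlier results of these data known. Some of the 42, such as Emilin2 and Timp3, passed the filter only through the control libraries, where they were higher. Nothing is therefore read from these counts or this median.

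Of 3 other fibulins and hemicentins 2 had a row, and Hmcn2 was not analysed here. Fbln7 had 4, 1, 1 and 0 reads, and Hmcn1 was at 0 in all libraries. Of 15 other microfibril and elastic fibre proteins 4 were tested. Emilin2, which encodes a glycoprotein of elastic tissue, was at 3.73 and 2.57 RPKM in the control libraries and 0.815 and 0.612 RPKM in those labelled Six2, a log2 difference of -1.27 (SE 0.190). Ltbp4, the remaining Ltbp gene, was at 24.6 and 23.7 RPKM and at 19.4 and 28.1 RPKM, more abundant per length than Ltbp1 in each library. Mfap3 and Mfap1a differed by -0.13 and -0.14.

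Of 17 crosslinking enzymes and assembly factors 13 were tested, 9 of them below 0, with a median of -0.10. The lysyl oxidase-like enzyme gene Loxl3 was at 55.0 and 37.1 RPKM in the control libraries and 32.6 and 20.3 RPKM in those labelled Six2. Thsd4, whose product promotes fibrillin-1 assembly, was at 12.4 and 8.72 RPKM and at 6.33 and 5.05 RPKM, and Loxl4 at 3.32 and 2.91 RPKM and at 1.57 and 1.94 RPKM. In all 3 the groups did not overlap and the log2 differences were -0.79 (SE 0.305), -0.78 (SE 0.208) and -0.58 (SE 0.139). Ctsa, whose product belongs to the elastin receptor complex, was the most abundant of this list and differed by 0.03.

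Of 12 genes of latent TGF-beta and its activators 7 were tested, 5 of them below 0, with a median of -0.24. Itgb3, which encodes a subunit of an integrin that activates latent TGF-beta, was at 32.6 and 16.1 RPKM in the control libraries and 12.01 and 4.88 RPKM in those labelled Six2. Thbs1, which encodes the activator thrombospondin-1, was at 78.3 and 41.4 RPKM and at 33.8 and 19.1 RPKM, and Itgb5 at 17.4 and 10.00 RPKM and at 8.02 and 7.28 RPKM. In each of these 3 genes replicate 1 was the higher of its group. Itgb1, at 135 and 132 RPKM and at 114 and 111 RPKM, was the most abundant.

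Of 15 partner matrix proteins 10 were tested, 6 below 0 and 4 above, with a median of -0.33. Timp3, which encodes a metalloproteinase inhibitor bound to the matrix, was at 5.37 and 2.99 RPKM in the control libraries and 0.398 and 0.0550 RPKM in those labelled Six2, a log2 difference of -2.05 (SE 0.292). Fn1, the gene of fibronectin and a ligand of fibulin-2, was at 667 and 408 RPKM and at 287 and 206 RPKM, a difference of -1.10 (SE 0.301). Sparc was at 287 and 250.2 RPKM and at 142 and 160 RPKM. Of the 10 tested, 4 were lower and 4 higher in the libraries labelled Six2 without overlap, and 3 were lower and 2 higher at an unadjusted p under 0.05. The higher genes, named after their values were seen, were Agrn, which encodes the heparan sulfate proteoglycan agrin (44.2 and 45.7 against 62.6 and 64.2 RPKM), Col18a1 (55.9 and 47.2 against 73.5 and 65.2 RPKM), Tnc (3.03 and 6.64 against 8.47 and 9.21 RPKM) and the laminin chain gene Lamc1. The differences of Agrn and Col18a1 were 0.49 (SE 0.0888) and 0.42 (SE 0.132).

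Of 16 proteases that act on these proteins 8 were tested, 4 on each side of 0, with a median of 0.04. Mmp3, which encodes stromelysin-1, was at 248 and 265 RPKM in the control libraries and 665 and 410 RPKM in those labelled Six2, and Adamts4 at 3.57 and 2.95 RPKM and at 6.97 and 4.10 RPKM. Htra1, which encodes a secreted serine protease, was at 170 and 224 RPKM and at 70.1 and 122 RPKM. Ctsl, the most abundant, differed by 0.22 (SE 0.136). Without Six2 replicate 2, Mmp3 was called higher and Htra1 lower, and no other gene of the 6 lists was called.

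**Figure D4:**
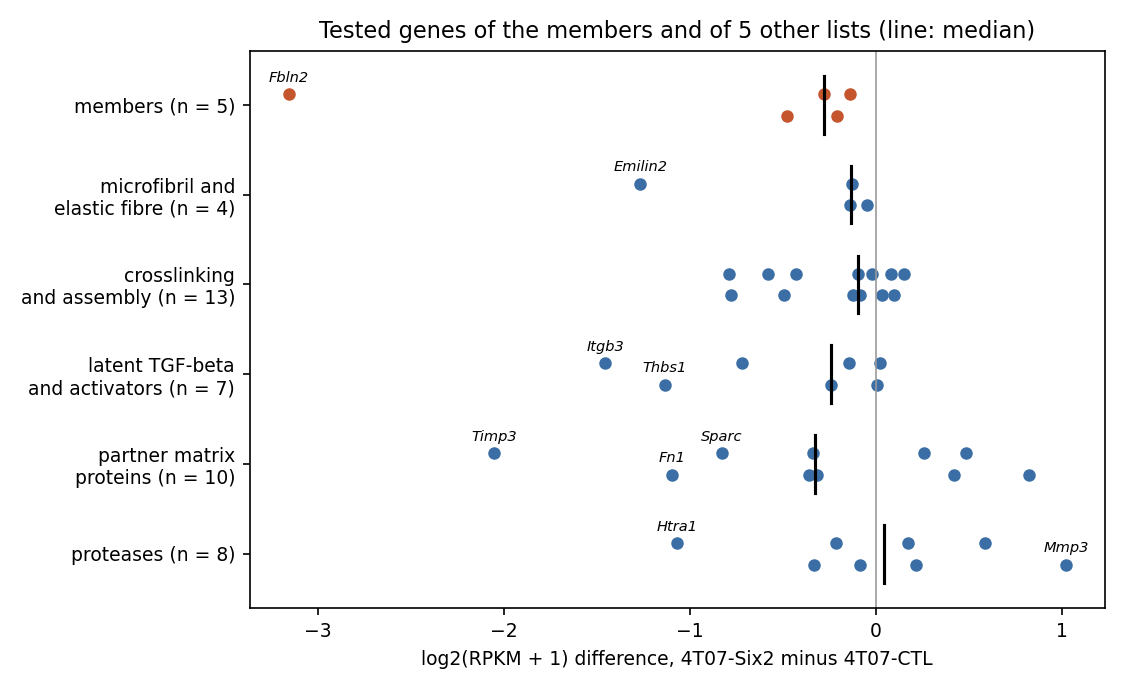
Log2(RPKM + 1) difference, 4T07-Six2 minus 4T07-CTL, of each tested gene of the members and of 5 lists with tested genes, with the median of each as a line; names mark genes at 0.8 or more in size that the naming rule took. Fbln2 at -3.16 and Timp3 at -2.05 lie lowest, and Mmp3 at 1.02 lies highest.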

How the data were processed

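Polyadenylated RNA of 2 control and 2 Six2-labelled samples was measured from TruSeq stranded libraries, per the labels' protocols. The authors deposited RPKM values. The submitters' processing notes name TopHat2 2.1.1, Bowtie2, HTSeq 0.8.0 and GRCm38; gene models, lengths and strand setting were not given in the sources used here. RPKM steps gave whole reads within 0.001 reads for 14425 of 14459 genes above 0 in 3 or more libraries, and with them the read totals; reads and length of a gene that share a factor may both be understated. Limma 3.58.1 in R 4.3.3 fitted log2(RPKM + 1) on group with trended variances, for genes reaching 1 RPKM in at least 2 libraries. Tests were two-sided, with Benjamini-Hochberg adjustment at 0.05. The fit was also run on simulated libraries that had no replicate effect, and the outcome is not given here. Coordinates are those of GENCODE M21 on GRCm38. Members and lists were chosen with earlier results of these data known. Named were all members, from each pathway list the called genes, the 3 largest differences and the most abundant gene, from each cell type list the most abundant gene and those at 0, and the 3 genes most like Fbln2 and its nearest neighbours; 1 marker is not reported here. Alternatives changed the pseudocount, filter, scaling, variance model, chromosome medians, replicate number and libraries.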

Additional observations from a re-analysis of the deposited data

How the results depend on the processing

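Genes called, 3 higher and 9 lower in the main setting, were 0 and 0 when low values were not filtered (limma-trend, smallest adjusted p = 0.0519, with 975 higher and 1528 lower at an unadjusted p under 0.05), and 1 and 0 with a filter of 5 RPKM. They ranged from 2 to 18 higher and 9 to 50 lower when 1 library was left out, the former being 18, 4 and 6 and the latter 50, 31 and 25 without Six2 replicate 2, Six2 replicate 1 and control replicate 2 in turn. Of the genes of the 6 lists 0 were called in either direction; leaving out 1 library gave 0 to 1 higher and 0 to 1 lower. The Fbln2 difference of -3.16 was -5.17 with a pseudocount of 0.1 and -5.85 with voom on recovered reads, settings that weigh low values differently, and -3.49 to -2.82 when 1 library was left out. The adjusted p of Fbln2 was 0.0592 in the main setting (limma-trend), 0.06 with voom and 0.116 when low values were not filtered (limma-trend). With a pseudocount of 0.1 it was the only member called, beside 3 genes higher and 9 lower among all 10654 tested. Fbln2 was chosen with these values known. In a fit without 1 library the lone sample of a group is assumed to vary like the other group. The replicate number may not pair the samples, since the labels do not say what it marks. The difference between replicates correlated between the groups at r = 0.818 over 10654 genes. With a replicate block 2133 genes were called higher and 2506 lower, 6 and 19 of them in the lists, and 4 of the 5 tested members (Fbln2, Efemp2, Ltbp1 and Ltbp2). The signs of Ltbp1 and Ltbp3 changed as given above; Efemp2, Ltbp2 and Fbln2 kept theirs in all 11 alternatives. The cause of these shifts was not tested. Voom left out 33 genes whose reads could not be recovered.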
